A study of Mus musculus with 162 samples.

Results

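The late fast of the mouse brain (BRN, the telencephalon and diencephalon) was set against the fed state. The libraries were chosen by organ and hours without food: 5 BRN libraries at 18 or 22 h make up the late fast and 6 at 0 or 2 h the fed state, so that 11 of the 162 libraries of the series entered. Replicate 1 at 18 h, which the study had left out and which held 279848 counts, was not used. All mice were C57BL/6J males of 8 to 9 weeks, group-housed with 12 h of light and 12 h of dark. The 0 h mice ate freely, the others lost their food 2, 18 or 22 h before a shared time of killing early in the dark phase, and water was given to all. Each library holds the mRNA of 1 mouse, and the same mice gave the cerebellum (CBL), brainstem (BST), olfactory bulb (OB) and further organs. The comparison asks which genes of the brain stand at other levels after most of a day without food.

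As background, the brain runs mainly on glucose in the fed state and takes up ketone bodies as a fast goes on. Neurons of the hypothalamus read hormones and fuels and release peptides that drive or restrain eating, and glucocorticoids from the adrenal reach brain cells through a nuclear receptor that switches genes on and off. Neurons spend much of their ATP, made by oxidative phosphorylation in mitochondria, on ion gradients and synapses.

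The fed libraries held 6149574 to 12108290 counts and the late ones 3045845 to 9254029. A level is given below as normalized CPM, a gene's share of a library's counts scaled by the TMM factor of edgeR. Late values are listed in the order 18 h replicate 2, 18 h replicate 3 and 22 h replicates 1, 2 and 3, and fed values as the lowest, median and highest of 6. Forebrain markers stood high in every library: Camk2a, a kinase of excitatory synapses, at 1719 to 2591, and the cortical glutamate transporter gene Slc17a7 at 765 to 1149. Of the hindbrain genes, 8 Hox genes had 2 to 33 counts each over all 11 libraries. The whole list of brainstem and spinal markers summed to 4.799, 13.6 and 27.6 in fed and to 40.4, 18.5, 21.3, 23.01 and 31.3 in late libraries, with the serotonin synthesis gene Tph2 the most abundant. Of cerebellar genes, the Purkinje gene Pcp2 had 46 counts and the granule cell gene Gabra6 had 54, and both were highest in 18 h replicate 3, at 1.73 and 5.19.

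The libraries differed in ways that run along with the groups. The numbers in the library names fall in an earlier and a later series: 0 h replicates 1 to 3 and 2 h replicate 3 carry the earlier, and 2 h replicates 1 and 2 and all 5 late libraries the later. Since the earlier series holds fed libraries alone, series and fasting largely cannot be told apart. Mitochondrial mRNAs took 3.49 to 8.77% of the counts in fed libraries and 6.82 to 11.8% in late ones. The late library of 18 h replicate 2 stood apart from the rest: it was the shallowest, showed counts for 13692 genes against 18726 to 23266 in the others, and had a median rank correlation of 0.895 with the other libraries across genes, where the others reached at least 0.948.

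In the late fast 99 genes rose and 30 fell in BRN, among 16749 tested (0.591% and 0.179%). The risers included Selenom, Nenf and Tmsb10, small proteins of the secretory path and the cytoskeleton, along with subunits of the ribosome and of the respiratory chain. Among those that fell were Sdk2 and gamma-protocadherins, adhesion molecules of neurons, the potassium channel gene Kcnn3 and the phosphodiesterase gene Pde10a. The risers had short transcripts, with a median length of 887 bases for the longest transcript of a gene, and the others long ones, at 7653, beside 3175 over all genes tested. Pseudogenes made up 23 of the 99 (23.2%) and 1 of the 30 (3.33%), against 6.18% of all genes tested.

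A gene was called with edgeR's quasi-likelihood test at a Benjamini-Hochberg adjusted p under 0.05 and an absolute log2 fold change over 1, and "rose" and "fell" are used below for adjusted p under 0.05 alone. Without the limit on fold, 399 genes were higher and 182 lower (2.38% and 1.09%). At an unadjusted p under 0.05, 2323 of 16749 genes were higher and 2043 lower. Counts at that limit in the lists below have these as their background. All late libraries lay beyond all fed ones for 560 genes (3.34%), among them 31 of the 99 and 16 of the 30. The smallest adjusted p was 0.0416, which many genes shared, so that the calls sat close to the threshold. Without 0 h replicate 1, 0 h replicate 2, 0 h replicate 3, 2 h replicate 2, 18 h replicate 2, 22 h replicate 1 or 22 h replicate 2, each left out alone, edgeR called 0 genes, with 3186 to 4469 genes at an unadjusted p under 0.05 against 4366 with all libraries. It called 475 higher among 579 genes without 2 h replicate 1, then 66 and 14 without 2 h replicate 3, 266 and 86 without 18 h replicate 3, and 480 and 307 without 22 h replicate 3. On all 11 libraries DESeq2 called 315 higher and 156 lower (1.88% and 0.931%), and limma-voom 398 and 295 (2.38% and 1.76%). Limma-voom was run with a quality weight per library, from 0.211 for 18 h replicate 2 to 2.54 for 2 h replicate 2. Without the limit on fold DESeq2 passed 1291 and 930 (7.71% and 5.55%) and limma-voom 1832 and 1593 (10.9% and 9.51%). Within the later library series, with 5 late and 2 fed libraries, edgeR called 0 genes (377 at an unadjusted p under 0.05), and it called 0 with the series as a covariate (656). In every one of these fits the 99 kept a positive and the 30 a negative fold change.

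Against the 0 h mice alone, which all carry the earlier series, 602 genes were called higher and 127 lower. Against the 2 h mice alone edgeR called 0, with 1021 at an unadjusted p under 0.05. The 18 h and the 22 h libraries set apart against all fed libraries also gave 0 calls each, with 3857 and 4651 at an unadjusted p under 0.05. DESeq2 and limma-voom were not run on these subsets.

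Among the risers, 12 genes with separate groups were taken by smallest adjusted p. Selenom, a selenoprotein of the endoplasmic reticulum, stood at 79.8, 108 and 137.2 in the fed libraries and at 326, 191, 247, 292 and 154 in the late ones. Its log2 fold change was 1.16 ± 0.19 (SE, n = 5 and 6) with an adjusted p of 0.0416. The late libraries all lay above the fed ones, 18 h replicate 2 being highest and 22 h replicate 3 lowest. Nenf, which codes for the secreted neurotrophic factor neudesin, went from 44.9, 64.6 and 88.4 to 211, 124.3, 154, 192 and 90.5, a log2 fold change of 1.22 ± 0.21. Here the lowest late library, again 22 h replicate 3, lay just above the highest fed one, 2 h replicate 1. Sncg, gamma-synuclein, an axonal protein of the synuclein family, had fed values of 4.65, 7.55 and 10.7 and late values of 20.6, 17.5, 18.0, 19.7 and 16.9. Its log2 fold change was 1.29 ± 0.23 with separate groups, and within the later series it reached 1.35. Eif4a1, the RNA helicase that opens mRNAs for translation, stood at 52.0, 72.9 and 100.6 and then at 201, 117.7, 177, 178 and 102.6, a log2 fold change of 1.04 ± 0.19. Its highest fed and lowest late libraries nearly touched.

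The other 8 were Tmsb10, which binds actin monomers, the cytokine gene Mif, Paxx, a factor that helps join broken DNA ends, Jsrp1, a protein known from muscle sarcoplasmic reticulum, the ribosomal protein genes Rpl14 and Rpl13, and the pseudogenes Rpl28-ps1 and Gstp-ps. Over all 12 the log2 fold changes ran from 1.03 for Paxx to 1.496 for Jsrp1, and from 0.73 to 1.35 within the later series. Ribosomal protein genes and pseudogenes share reads with near-identical copies, so that their counts are uncertain. The libraries kept a like order from gene to gene: 22 h replicate 3 was the lowest late library in 12 of 12, 18 h replicate 2 the highest in 11, and 2 h replicate 1 the highest fed library in 10.

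Among the 30 genes called lower, 12 had separate groups and no predicted gene name. Sdk2, a homophilic adhesion molecule that guides synaptic contacts, stood at 11.0, 18.1 and 27.3 in fed and at 4.41, 6.73, 8.66, 6.56 and 8.97 in late libraries. Its log2 fold change was -1.33 ± 0.27 with an adjusted p of 0.0416. All late values lay under the fed ones, with 2 h replicate 1 the lowest fed library. Pcdhgc5, a gamma-protocadherin of the neuronal surface, had fed values of 27.3, 33.9 and 58.7 and late values of 8.09, 24.2, 7.82, 10.6 and 17.8. The 18 h replicate 3 library came closest to the fed ones, and the log2 fold change was -1.43 ± 0.30. Pcdhga5 of the same cluster changed by -2.25 ± 0.57 from low levels, 3.49, 5.66 and 7.27 against 0, 1.15, 1.32, 0.25 and 2.45. These protocadherins share their last exons with the whole cluster, so that reads from there cannot be given to a member and their counts are uncertain.

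Pde10a, which breaks down cyclic nucleotides in the projection neurons of the striatum, stood at 84.5, 107 and 252 in fed libraries and at 42.6, 72.3, 52.1, 61.5 and 74.2 in late ones. The highest fed values were those of 0 h replicates 1 to 3, and the 2 h libraries were the nearest to the late ones. Its log2 fold change of -1.13 ± 0.27 (adjusted p 0.0444) was -0.52 within the later series. Of the 12 striatal markers tested, Pde10a was the 1 called lower, 6 had positive fold changes, and the median was -0.04. Their summed level overlapped, at 1122, 1291 and 1622 in fed and 1186, 1113, 1589, 1535 and 1090 in late libraries. Prkcd, a protein kinase C that is rich in the thalamus, went from 23.3, 38.5 and 71.0 to 11.8, 15.6, 21.3, 22.1 and 23.1, or by -1.06 ± 0.28 (-0.70 within the later series). Its highest late value, of 22 h replicate 3, lay just under the lowest fed value, of 0 h replicate 3. Kcnn3, a calcium-activated potassium channel that slows firing, changed by -1.12 ± 0.26, and Elfn2, a synaptic partner of metabotropic glutamate receptors, by -1.12 ± 0.25. Dgkg, which phosphorylates diacylglycerol, changed by -1.27 ± 0.29, and the transcriptional repressor gene Spen by -1.18 ± 0.26. The adaptor genes Bcar3 and Cmip stood at -1.12 and -1.09. For the 12 genes 22 h replicate 3 was the late library nearest to the fed ones in 9 and 18 h replicate 3 in the other 3, while 2 h replicate 1 was the nearest fed library in 7.

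Fold changes followed transcript length across all genes. With genes in deciles by the length of their longest transcript, the median log2 fold change was 0.55 in the shortest decile (up to 1030 bases) and -0.43 in the longest (from 6641 bases), and it declined in each step between. The shortest decile held 55 of the called risers and 1 gene called lower, and the longest 0 and 17. Across 16519 genes with a known length, Spearman's rho between length and fold change was -0.46, and between GC content and fold change 0.21. Genes are not independent replicates, so that these are descriptions.

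The trend was also visible library by library. The median log2 level of the longest decile minus that of the shortest was 3.43, 3.19 and 3.25 in 0 h replicates 1 to 3 and 2.45, 3.08 and 2.67 in 2 h replicates 1 to 3. In the late libraries it was 1.83, 2.59, 1.95, 1.70 and 2.83. The groups overlapped: 22 h replicate 3 and 18 h replicate 3 stood among the fed libraries, and 2 h replicates 1 and 3 among the late ones. The means were 3.01 ± 0.37 (SD, n = 6) and 2.18 ± 0.50 (SD, n = 5). The difference in median fold change between the longest and shortest deciles was -0.98 with all 11 libraries and -0.65 within the later series. RNA integrity values are not among the labels, and the part of RNA quality or of library preparation in this trend was not tested.

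**Figure D1:**
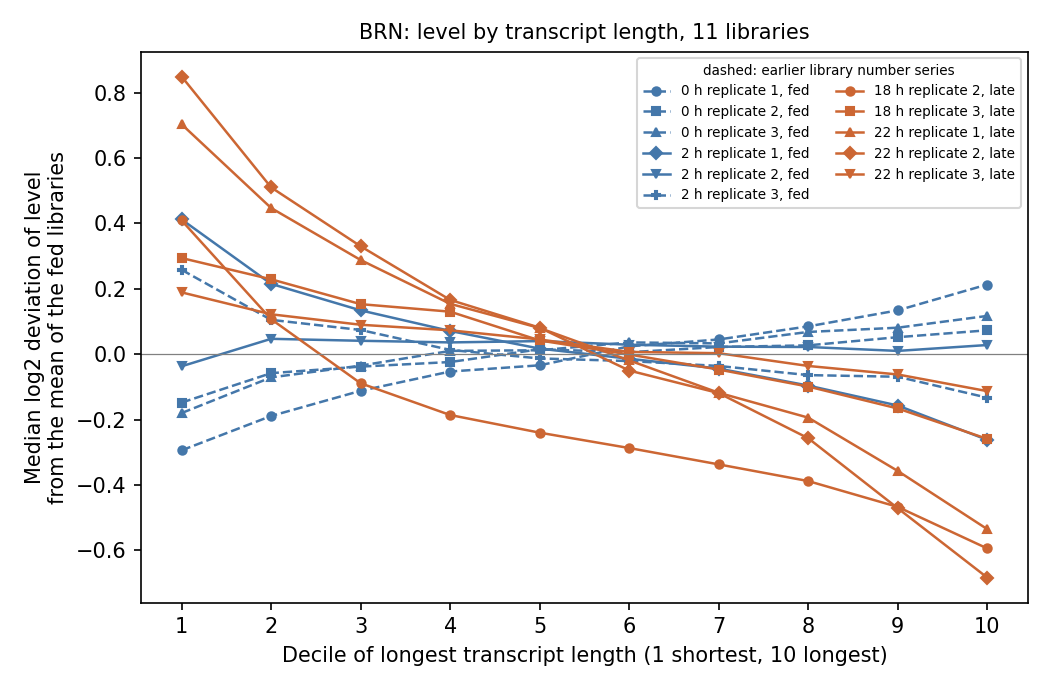
Median log2 deviation of a library's gene levels from the mean of the fed libraries, in deciles of genes by longest transcript length (1 shortest, 10 longest). Blue lines are fed and orange lines late libraries, and dashed lines carry the earlier library series. The 0 h lines climb with length and the late lines decline, with 2 h replicate 1 beside the late libraries and 22 h replicate 3 close to the fed ones.

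With the length trend taken out of each library by offsets, edgeR called 3 genes higher and 0 lower, and 32 passed at any fold, all of them higher. The 3 were Eif4a1, the complex I subunit gene Ndufb7 and Smarcb1 of the SWI/SNF chromatin remodeller, the last pair chosen after their values were seen. Of the 32 genes 27 had also passed without offsets. Selenom, Nenf and Rpl14 were among the 32, at 0.90, 0.74 and 0.81. The median of all genes moved from -0.04 to 0.01. No gene that fell passed with offsets: the 12 described above stood at -0.67 to -2.10, and 3324 genes of the whole table had an unadjusted p under 0.05. DESeq2 and limma-voom were not run with offsets. The longest transcript overstates the length of some genes, such as Ndufb7 with 4435 bases against a median of 623 over its transcripts. Offsets on that median length, added after seeing the data, gave 0 calls, 3429 genes at an unadjusted p under 0.05, and a rho of -0.07 between longest transcript and fold change.

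Ribosomal protein and oxidative phosphorylation genes had positive median fold changes. Of 72 ribosomal protein genes tested, 5 were called higher and 0 lower. At any fold 13 passed (31 with DESeq2 and 35 with limma-voom), all higher. Over all genes edgeR called 0.591% higher, and 2.38% passed higher at any fold (7.71% with DESeq2 and 10.9% with limma-voom). The list's median log2 fold change was 0.76 beside -0.04 over all genes. Rpl39, a small protein at the ribosome's exit tunnel, stood at 8.79, 13.6 and 26.3 in fed and at 94.1, 31.2, 49.4, 67.2 and 21.3 in late libraries. Its groups overlapped, since 2 h replicate 1 lay above 22 h replicate 3, and the log2 fold change was 1.74 ± 0.35 (1.39 within the later series). Rpl36, of the large subunit, stood at 6.15, 8.79 and 12.0 and at 26.1, 15.6, 23.3, 31.6 and 12.1, with separate groups that nearly touched, at 1.28 ± 0.28. Rpl13 stood at 1.27 ± 0.24 and Rpl14 at 1.13 ± 0.20. The level summed over all ribosomal protein genes was 2819, 3433 and 7251 in fed and 11050, 4927, 8994, 11380 and 4384 in late libraries. The fed library of 2 h replicate 1 thus lay above 2 of the late ones. The list's median length was 1108 bases, and its median was 0.39 with length offsets and 0.57 within the later series.

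Nuclear genes of oxidative phosphorylation gave 7 called higher and 0 lower of 89, with 21 passing at any fold and a median of 0.71. DESeq2 passed 49 higher and 0 lower at any fold, and limma-voom 67 and 1. Over all genes edgeR called 0.591% higher and passed 2.38% higher at any fold, where DESeq2 passed 7.71% and limma-voom 10.9%. Atp5k, a subunit of the ATP synthase, stood at 60.8, 90.0 and 159 and at 301, 182, 253, 312 and 137.2, a log2 fold change of 1.19 ± 0.26 (0.89 within the later series). Ndufa2, a complex I subunit, stood at 61.3, 84.1 and 154 and at 330, 154, 256, 271 and 115.2. In both, 22 h replicate 3 lay below the highest fed library, 2 h replicate 1. For Ndufa2, 18 h replicate 3 (153.9) also lay just below that library (154.02). Atp5d and Atp5o, also of the ATP synthase, rose by 1.05 ± 0.24 and 1.07 ± 0.24. With length offsets the list's median was 0.34 and 4 of its genes passed. The 11 mitochondrially encoded mRNAs tested had a median of 0.55 (0.22 with length offsets, 0.27 against 2 h alone) and positive fold changes in 11 of 11. However, edgeR passed 0 of them, with 6 at an unadjusted p under 0.05, where 4366 of all 16749 genes stood. DESeq2 called 1 and limma-voom 0, and each passed 1 at any fold. Of these mt-Nd6, a complex I subunit, stood at 128, 245 and 370 and at 906, 343, 384, 521 and 359 (1.01 ± 0.29, adjusted p 0.0584), and mt-Cytb of complex III at 0.55 ± 0.20.

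Of the peptides that steer feeding no gene passed with edgeR. It called 0 of 20, with 8 at an unadjusted p under 0.05, and DESeq2 and limma-voom called 1 each and passed 2 and 6 at any fold, all higher. Over all genes DESeq2 and limma-voom called 1.88% and 2.38% higher and passed 7.71% and 10.9% higher at any fold. With edgeR 2323 of all 16749 genes were higher and 2043 lower at an unadjusted p under 0.05. The list's median was 0.59, and 18 of the 20 fold changes were positive. The summed level stood at 875, 1013 and 1093 in fed and at 1086, 1110, 1520, 1596 and 967 in late libraries, with 18 h replicate 2 and 22 h replicate 3 within the fed range. Pmch, which codes for the appetite-promoting melanin-concentrating hormone of the lateral hypothalamus, stood at 27.5, 44.8 and 75.5 in fed and at 169, 50.4, 137.9, 235 and 61.04 in late libraries. The 18 h replicate 3 and 22 h replicate 3 libraries lay within the fed range, and the log2 fold change was 1.47 ± 0.38 with an adjusted p of 0.0506. Cartpt, whose peptides restrain eating, stood at 17.4, 21.3 and 34.8 and at 23.9, 35.2, 45.2, 49.7 and 31.0 (0.69 ± 0.22, adjusted p 0.0723). The 12 hypothalamic markers summed to 68.6, 135.1 and 154 in fed and to 275, 150, 253, 359 and 152 in late libraries, with Pmch the most abundant and each marker detected. Of the 11 hypothalamic markers tested, 8 had positive fold changes, and their median was 0.695 (0.19 with length offsets). The part of the amount of hypothalamus in each dissection in the peptide values was not tested. In bulk tissue fewer cells of a type and less RNA per cell cannot be told apart. With length offsets the peptide median was 0.21.

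Lists of synaptic signalling genes had negative median fold changes. Of 33 glutamate and GABA receptor subunits 0 were called and 1 fell, with a median of -0.37 (-0.14 with length offsets, -0.24 within the later series) and 14 lower at an unadjusted p under 0.05, and DESeq2 called 1 lower and limma-voom 2. At any fold DESeq2 passed 10 lower and 1 higher, and limma-voom 14 and 1. With edgeR 2043 of all 16749 genes were lower at an unadjusted p under 0.05. Over all genes 1.09% fell with edgeR, and DESeq2 and limma-voom passed 5.55% and 9.51% lower at any fold. The gene that fell was Gabbr2, a subunit of the metabotropic GABA receptor, at 201, 223 and 252 in fed and 122.04, 191, 123.2, 107 and 190 in late libraries. All late values lay under the fed ones, and the log2 fold change was -0.61 ± 0.16. Grm5, a metabotropic glutamate receptor, stood at -0.85 ± 0.23 (adjusted p 0.0529). Of 37 voltage-gated channel genes 0 were called and 3 fell, where 1.09% of all genes fell, among them the calcium channel genes Cacna1c and Cacna1g. Cacna1c, the pore of an L-type channel, stood at 49.1, 78.5 and 96.4 and at 23.2, 45.8, 34.05, 28.95 and 56.6, at -0.99 ± 0.23. Its 22 h replicate 3 value lay above that of 2 h replicate 1. Cacna1g, a T-type channel, stood at 62.6, 85.7 and 111.5 and at 61.02, 57.1, 46.2, 34.6 and 57.1, at -0.75 ± 0.18 with separate groups. The channel list had a median length of 8209 bases, and its median of -0.44 was -0.08 with length offsets. DESeq2 called 1 and limma-voom 2 channel genes lower, and they passed 14 and 20 lower and 0 and 1 higher at any fold.

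Release machinery stood closer to the middle, with 0 of 21 genes past the test in either direction, 8 at an unadjusted p under 0.05, 0 called by DESeq2 or limma-voom (which passed 1 and 5 lower and 1 and 2 higher at any fold), and a median of -0.15 that was 0.07 with length offsets. Of all genes DESeq2 and limma-voom passed 5.55% and 9.51% lower and 7.71% and 10.9% higher at any fold. An unadjusted p under 0.05 was reached by 4366 of 16749 genes with edgeR. Vamp2, a vesicle fusion protein with a short transcript, stood at 0.43 ± 0.12 (adjusted p 0.0514). Bsn, the long scaffold gene of the active zone, stood at -0.57 ± 0.17 (adjusted p 0.0601). The sign of Bsn turned with length offsets, to 0.04.

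Neurotrophins and their receptors had a median of -0.61 over 12 genes tested, with 1 positive fold change. None was called by edgeR, DESeq2 or limma-voom, 6 were lower at an unadjusted p under 0.05, and 1 fell. DESeq2 passed 5 and limma-voom 6 lower at any fold. With edgeR 2043 of all 16749 genes were lower at an unadjusted p under 0.05. Over all genes 1.09% fell with edgeR, and 5.55% and 9.51% passed lower with DESeq2 and limma-voom. The gene that fell was Ntrk3, the receptor of neurotrophin-3, at 114.8, 164 and 175 in fed and at 90.4, 111.9, 76.5, 66.2 and 132.3 in late libraries. The late value of 22 h replicate 3 lay inside the fed range, and the log2 fold change was -0.67 ± 0.17. With length offsets it was 0.00, and on the median length of its transcripts -0.53. Sort1, which sorts neurotrophins and their receptors, stood at 347, 375 and 423 and at 117.996, 322, 209, 204 and 320, at -0.68 ± 0.20 (adjusted p 0.0579). All its late values lay under the fed ones. The level summed over the list was 1244, 1374 and 1423 in fed and 812, 1135, 903, 830 and 1157 in late libraries. These sums did not overlap. The study named Bdnf and its receptor from a gene list pooled over brain, liver, brown fat and subcutaneous fat. Its text gives no fold change in BRN for them. That list drew on these samples too, so that the values here are not independent evidence. With edgeR 0 of the 2 passed, both at an unadjusted p under 0.05. DESeq2 and limma-voom each passed both as lower at any fold and called 0. Bdnf, a growth factor of active synapses, stood at 16.1, 19.4 and 26.5 and at 4.41, 15.0, 9.87, 10.1 and 16.7 (-0.80 ± 0.27, adjusted p 0.0832). Its receptor gene Ntrk2 stood at -0.35 ± 0.10 (adjusted p 0.0621), and at 0.08 with length offsets.

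In the lists of genes that answer activity, hormones and the time of day, 0 to 2 genes each passed the test. Over all genes 2.38% passed higher and 1.09% lower, and nothing is read from counts this small. DESeq2 and limma-voom passed 7.71% and 10.9% of all genes higher and 5.55% and 9.51% lower at any fold. With edgeR 2323 of 16749 genes were higher and 2043 lower at an unadjusted p under 0.05. Of 20 immediate early genes 1 fell and 0 were called, with a median of -0.34, and 6 were lower and 1 higher at an unadjusted p under 0.05. DESeq2 and limma-voom called 0 and passed 4 and 3 lower at any fold. Egr3, a zinc finger factor switched on by synaptic activity, stood at 61.2, 78.2 and 93.4 in fed and at 18.7, 45.6, 47.3, 47.3 and 58.01 in late libraries. All late libraries lay under the fed ones, and the log2 fold change was -0.81 ± 0.21 with an adjusted p of 0.0489 (-0.92 within the later series). Fosl2, a partner in the AP-1 factor, stood at -0.98 ± 0.29 (adjusted p 0.0613). With length offsets the list's median was -0.45.

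Of 20 glucocorticoid response genes 1 was called, Zbtb16, and it fell. DESeq2 and limma-voom also called 1 lower each, and passed 5 and 5 higher and 2 and 3 lower at any fold. Over all genes edgeR called 0.179% lower, DESeq2 0.931% and limma-voom 1.76%. At any fold DESeq2 and limma-voom passed 7.71% and 10.9% of all genes higher and 5.55% and 9.51% lower. This zinc finger repressor stood at 14.4, 17.7 and 26.3 and at 11.4, 9.81, 5.90, 3.34 and 12.0, at -1.19 ± 0.30 (adjusted p 0.0467). All late values lay under the fed ones, 22 h replicate 2 lowest, and the value was -1.32 within the later series. The metallothionein gene Mt1, chosen after its values were seen, rose by 0.85. Fold changes were positive for 15 of the 20, with a median of 0.33, which was 0.33 with length offsets but 0.12 within the later series. The sum of the list was 1094, 1399 and 1697 in fed and 2194, 1433, 1986, 2033 and 1477 in late libraries.

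In insulin and FoxO signalling 1 of 18 genes fell and 0 were called, with a median of -0.38 that was -0.03 with length offsets. That gene was Igf1r, the receptor of the insulin-like growth factors, at 32.9, 52.4 and 54.0 and at 21.7, 30.2, 21.5, 17.1 and 37.9 (-0.91 ± 0.21, adjusted p 0.0416). Its 22 h replicate 3 value lay above that of 2 h replicate 1. Irs2, which couples insulin receptors to their kinase, stood at -0.78 ± 0.21 (adjusted p 0.0503). DESeq2 called 0 of the list and limma-voom 1 lower, they passed 3 and 5 lower and 2 and 2 higher at any fold, and 6 had an unadjusted p under 0.05. The 18 clock genes gave a median of -0.42 (-0.15 with length offsets) with 0 past the test. Of these 9 were lower at an unadjusted p under 0.05, beside 2043 of all 16749 genes. DESeq2 and limma-voom called 0 clock genes and passed 6 and 9 lower at any fold. Over all genes they passed 5.55% and 9.51% lower and 7.71% and 10.9% higher. Per2, a repressor of the clock, stood at -0.81 ± 0.25 (adjusted p 0.0646) and Nr1d1, a nuclear receptor of its second loop, at -0.54 ± 0.17 (adjusted p 0.0721). All mice were killed at the same hour.

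Genes of fuel use gave medians close to 0. Of 17 genes for ketone and glucose use 0 passed, with a median of 0.09 and 6 at an unadjusted p under 0.05. Ldha and Ldhb, the lactate dehydrogenase subunits, stood at 0.53 ± 0.15 (adjusted p 0.0538) and 0.38 ± 0.11 (adjusted p 0.0624). Of 19 fatty acid oxidation genes 0 passed, with a median of 0.17 and 3 at an unadjusted p under 0.05, and the fasting regulator Ppara lay near the detection floor at 0.63, 1.53 and 2.20 against 0, 0.77, 0.60, 0.25 and 0.47. DESeq2 and limma-voom called 0 in both lists. For ketone and glucose use they passed 2 and 2 higher and 0 and 1 lower at any fold, and for fatty acid oxidation 0 and 1, higher. Cholesterol synthesis had a median of 0.09, and Pmvk, the phosphomevalonate kinase gene, was the 1 of 19 to rise, by 0.69 ± 0.18, where DESeq2 and limma-voom passed 2 and 4 higher and 1 and 1 lower at any fold. Over all genes 2.38% rose with edgeR, and 4366 of 16749 had an unadjusted p under 0.05. DESeq2 and limma-voom passed 7.71% and 10.9% of all genes higher and 5.55% and 9.51% lower at any fold. Pmvk stood at 34.4, 47.1 and 55.0 in fed and at 104.03, 53.3, 80.4, 74.0 and 59.8 in late libraries. Its 18 h replicate 3 value lay inside the fed range.

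In the lists of stress and clearance genes 0 to 2 genes each passed the test, beside 2.38% higher and 1.09% lower over all genes. From these counts too nothing is read. DESeq2 and limma-voom passed 7.71% and 10.9% of all genes higher and 5.55% and 9.51% lower at any fold. With edgeR 2323 of 16749 genes were higher and 2043 lower at an unadjusted p under 0.05. Cirbp, an RNA-binding protein that cells make more of in the cold, rose by 0.64 ± 0.14, from 53.5, 69.5 and 73.0 to 82.0, 106, 100, 130 and 89.8. Every late library lay above every fed one, and the value was 0.68 within the later series and 0.32 with length offsets. It was the 1 of 15 heat shock and cold-inducible genes past the test, in a list with a median of 0.31 (0.32 with length offsets) and 0 genes called. At an unadjusted p under 0.05 there were 8 higher and 3 lower, and DESeq2 called 1 lower and limma-voom 0, passing 4 and 6 higher and 1 and 0 lower at any fold. Of 22 autophagy and lysosome genes 2 rose and 0 were called, with a median of 0.15, and DESeq2 and limma-voom called 0 and passed 3 and 6 higher and 2 and 3 lower. Map1lc3a, which coats autophagosomes, rose by 0.77 ± 0.18, and Ctsd, a lysosomal protease, by 0.91 ± 0.23 from 173, 242 and 414 to 616, 380, 532, 641 and 294, with overlapping groups. No gene passed among 15 of the ATF4 stress response (median 0.02, 3 at an unadjusted p under 0.05) or 16 ER chaperones (median -0.14, 6 at an unadjusted p under 0.05). DESeq2 and limma-voom called 0 in both, and passed 2 and 2 higher among the former and 2 and 2 lower and 0 and 1 higher among the latter.

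Lists of RNA-handling genes had negative medians and the antigen presentation list a positive one. Of 22 splicing regulators 2 fell, Pnisr at -0.84 ± 0.21 and the splicing scaffold gene Srrm2 at -0.65 ± 0.17, and the median was -0.29 (-0.14 with length offsets). DESeq2 and limma-voom called 0 of them and passed 6 and 8 lower and 1 and 1 higher at any fold. Over all genes 1.09% fell with edgeR, and DESeq2 and limma-voom passed 5.55% and 9.51% lower at any fold. DESeq2 and limma-voom passed 7.71% and 10.9% of all genes higher, and with edgeR 4366 of 16749 had an unadjusted p under 0.05. Nothing is read from a count of 2. In Srrm2, 2 h replicate 1 at 367 and 2 h replicate 3 at 394 lay among the late values of 415, 369, 357, 280 and 398. Of 10 nuclear non-coding RNAs 0 passed, 7 had an unadjusted p under 0.05, DESeq2 called 1 higher and limma-voom 0, and each passed 1 higher and 1 lower at any fold. Their median of -0.49 was 0.01 with offsets on the longest transcript and -0.29 with offsets on the median length. Pvt1 stood at 1.08 ± 0.32 (adjusted p 0.0594) and the paraspeckle RNA Neat1 at -0.40 ± 0.13 (adjusted p 0.0794). Of 25 antigen presentation and interferon genes 0 passed with edgeR, 1 had an unadjusted p under 0.05, and DESeq2 and limma-voom called 0 and passed 1 each, higher. Their summed level was 231, 252 and 263 in fed and 336, 299, 293, 303 and 295 in late libraries, without overlap, with B2m the most abundant, and their median of 0.42 was 0.13 with length offsets. Predicted genes, 1657 with names of the form Gm and a number, gave 13 called higher and 3 lower (55 and 28 with DESeq2, 96 and 66 with limma-voom). Over all genes 0.591% were called higher and 0.179% lower (1.88% and 0.931% with DESeq2, 2.38% and 1.76% with limma-voom). Nothing is read from the edgeR counts of predicted genes. Their median was 0.00, and -0.31 with length offsets.

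**Figure D2:**
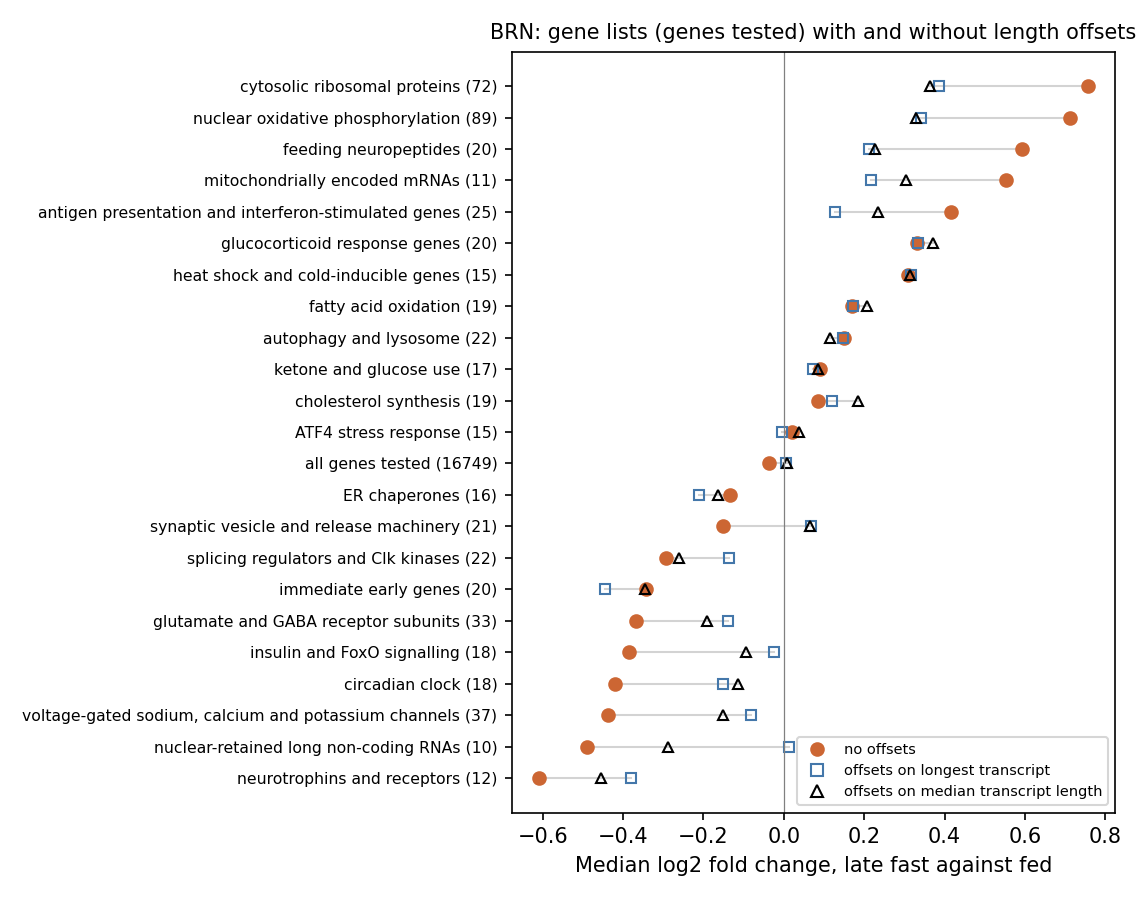
Median log2 fold change, late fast against fed, of the pathway gene lists and of all genes in BRN, with the number of genes tested. Filled circles are fits without offsets, squares fits with offsets on the longest transcript and triangles with offsets on the median transcript length. Among the lists drawn, ribosomal protein and oxidative phosphorylation genes lie highest at 0.76 and 0.71, and neurotrophins lowest at -0.61.

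The study chose 4 immune genes of BRN on these samples, which gives no independent evidence of their direction. Of the 2 tested, 1 was called higher, where 0.591% of all genes were. Nothing is read from a count of 1. Ctla2a, an inhibitor of cysteine proteases first found in T cells, stood at 0.75, 1.75 and 1.99 in fed and at 27.2, 6.73, 4.33, 4.08 and 3.15 in late libraries. All late values lay above the fed ones, and 18 h replicate 2 stood at several times the next. Its log2 fold change of 2.47 ± 0.56 was 1.54 without 18 h replicate 2 and 2.15 within the later series. Gata3, a factor of T cells and some neurons, overlapped at 0, 1.33 and 3.67 against 5.88, 0.19, 2.17, 3.59 and 1.28 (adjusted p 0.569). Fasl and Ly96, genes of cell killing and of lipopolysaccharide sensing, fell under the filter with no more than 1.73 and 3.27 in any of the 11 libraries.

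Of the hormone genes that the study named from these samples, 0 of 2 passed with edgeR or limma-voom and 1 was called lower by DESeq2. DESeq2 called 0.931% of all genes lower, and nothing is read from a count of 1. Gh, growth hormone, a product of the pituitary, had 229 counts in 5 of 6 fed libraries and 0 in the late ones. Most came from 2 h replicate 1 at 15.7 normalized CPM, with 2.51 the next highest. The fed mean was 3.30 and 3 counts per late library equal a mean of 0.55, so that Gh was at least 5.98-fold lower, with an adjusted p of 0.0755. Without 2 h replicate 1, a choice made after seeing the data, the fed mean was 0.82 and the bound 1.49-fold. Such floors cover counting error only. Igf2, an insulin-like growth factor of meninges and vessels, overlapped (adjusted p 0.788). Pituitary markers summed to 4.13, 7.36 and 25.8 in fed, the highest again 2 h replicate 1, and to 8.46, 5.19, 6.98, 12.6 and 7.57 in late libraries. Pomc, which the hypothalamus also makes, was the most abundant of the 11, and Pou1f1, Ghrhr and Gnrhr were at 0. The part of pituitary tissue in the Gh values was not tested.

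Markers of other cells and regions were summed in each library. The 13 myelin genes reached 6858, 8798 and 15230 in fed and 24020, 8404, 18550, 29750 and 9965 in late libraries, with Mbp, the myelin basic protein gene, most abundant and every marker detected. The same 3 late libraries, 18 h replicate 2 and 22 h replicates 1 and 2, stood high here and in the ribosomal protein sum, while 2 h replicate 1 was the highest fed library in both. Of the myelin genes 2 rose and 0 were called, with 4 passing higher at any fold with DESeq2 and 7 with limma-voom. Over all genes 2.38% rose with edgeR, and 7.71% and 10.9% passed higher with DESeq2 and limma-voom. An unadjusted p under 0.05 was reached by 4366 of 16749 genes with edgeR. The median of the myelin genes was 0.47, and 0.46 with length offsets. Their part in the other values was not tested. Blood markers, led by the globin gene Hbb-bs, gave 110, 178 and 457 in fed and 621, 416, 316, 309 and 220 in late libraries, with 0 of 6 past the test, 2 at an unadjusted p under 0.05 and 0 passed by DESeq2 or limma-voom. Cerebellar markers gave 277, 313 and 435 and then 438, 373, 394, 447 and 362, with 2 h replicate 3 the highest fed library, and Calb1, which the forebrain also makes, most abundant at 111.5 to 183. Markers of cortical projection neurons, at 3327, 3670 and 4086 and at 3214, 3689, 3169, 3059 and 3737, overlapped. So did those of astrocytes, at 4525, 5240 and 6395 and at 6213, 4980, 5437, 6065 and 5581. Of 13 microglial markers 1 rose (3 passed higher with DESeq2 and 2 with limma-voom), the complement gene C1qa, chosen after its values were seen, and their sum was 418, 489 and 617 against 685, 534, 509, 721 and 497.

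The change in BRN was set against that in the other brain regions of the same mice, with the mouse as a block. Libraries of the same hour and replicate number were taken as 1 mouse, since the sample titles name no mouse. That matching was not tested. Between BRN and CBL the change differed for 194 of 15364 genes tested (1.26%), 83 of them changing more negatively in BRN and the others more positively. At any fold 476 changed more negatively and 335 more positively (3.10% and 2.18%). The leading genes described above were chosen by their BRN values, which this difference uses again, so that their differences are descriptions and not independent evidence. In CBL the 11 leading risers tested there (all but Jsrp1) had fold changes between -0.20 and 0.20. Rpl13 differed by 1.42 ± 0.28, Tmsb10 by 1.28 ± 0.25 and Sncg by 1.22 ± 0.33. The leading genes that fell had CBL values of -0.05 to 0.62. Zbtb16 differed by -1.90 ± 0.39, Pcdhgc5 by -1.79 ± 0.30 and Sdk2 by -1.40 ± 0.28. For Zbtb16 the fold change was -1.19 in BRN and 0.62 in CBL, where it did not pass the test. Among the ribosomal protein genes 13 of 70 changed more positively in BRN than in CBL and 0 more negatively, with a median difference of 0.92, and of oxidative phosphorylation genes 18 of 88 and 0. Mitochondrial mRNAs differed in 7 of 11, and their fold changes in CBL had a median of -0.41. Channel genes gave 0 and 9 of 37, and receptor subunits 0 and 8 of 33. Blood markers changed more positively in 2 of 6 and more negatively in 0, with a median difference of 0.97. Over all genes the median difference was -0.05.

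This difference carried the length trend too, with a rho of -0.46 between length and difference across genes, and 38 genes were called with length offsets. All CBL and OB libraries used carry 1 library number series, so that the block does not remove the series difference within BRN. Without the mice of 0 h replicates 1, 2 or 3, 2 h replicate 2 or 22 h replicates 1 or 2, each left out alone, the CBL difference gave 0 calls, with 2915 to 3444 genes at an unadjusted p under 0.05. It gave 503 without 2 h replicate 1, 63 more and 59 less positive without 2 h replicate 3, 416 without 18 h replicate 3 and 660 without 22 h replicate 3. Against BST 0 of 15908 genes differed (0%), with 3723 at an unadjusted p under 0.05, but 482 without 2 h replicate 1 and 665 without 22 h replicate 3. Against OB 0 of 15846 differed (0%), with 3220 at an unadjusted p under 0.05 and 157 genes without 22 h replicate 3. No other tool was run for these differences. On their own the late and fed libraries gave 16 of 15976 called genes in CBL (0.100%), 0 of 16784 in BST (0%, 1675 at an unadjusted p under 0.05) and 14 of 16742 in OB (0.0836%). Length and fold change had a rho of 0.03 in CBL, 0.00 in BST and -0.30 in OB.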

How the data were processed

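The authors deposited a table of raw counts per gene, made by aligning paired-end reads of poly(A)-selected stranded libraries to GRCm38 with TopHat2 2.1.1 and counting unique reads with HTSeq 0.9.1. From these counts the genes at 1.233 CPM or more in at least 3 of 16 BRN libraries were tested with edgeR 4.0.16 in R 4.3.3 (TMM factors, robust quasi-likelihood test, Benjamini-Hochberg adjustment over 16749 genes). DESeq2 1.42.0 and limma 3.58.1 (voom with quality weights per library) were run beside it, and the code was tested on simulated data. Length offsets were loess fits of each library's deviation on log transcript length, from Gencode M21, which covered 98.63% of tested genes. The members and lists were chosen with earlier results of these data known. Genes were named by rule: up to 12 called genes in each direction with separate groups and no predicted name, by smallest adjusted p, in each list the called members (at most 4, by smallest p) or else the 2 with the smallest p, the most abundant marker of each cell type, and genes the study named. The 90 columns of the other organs entered no test. The table held 26 gene names turned into dates, which stayed in library totals and were not named.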

Additional observations from a re-analysis of the deposited data

Results flagged for a closer look

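In 196 groups of libraries examined, 8 held a library set far apart from the others, where chance gives about 1 in 20. Among late libraries, 18 h replicate 2 stood apart for Ctla2a (27.2, next 6.732), for the immune genes that the study named (33.08, next 11.93) and for the summed antigen presentation and interferon genes (336.3, next 303). In the fed group, 2 h replicate 1 stood apart for Gh (15.7, next 2.511), the hormone genes that the study named (16.53, next 4.081) and pituitary markers (25.84, next 8.547). Neutrophil markers were high in 2 h replicate 2 (24.76, next 8.115), and the summed synaptic release genes low in 0 h replicate 2 (12500, next 12910). All are in normalized CPM.

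Of 88 named genes tested in CBL, 26 changed otherwise in BRN than in CBL by more than 1 in either direction, with adjusted p from 0.0251 to 0.0473, under the limit of 0.05. At any fold 39 passed that limit. Over all genes tested in both regions 194 of 15364 (1.26%) differed by more than 1. At any fold 2.18% changed more positively and 3.10% more negatively in BRN. With each mouse left out in turn, 0 to 660 of all genes differed by more than 1. With length offsets 9 of the 26 passed at any fold. Many of the 88 were chosen by their BRN values, which the difference uses again, so that the count is not independent evidence. The differences in log2 fold change, each with its value under length offsets in brackets, were positive for Selenom 1.04 (0.76), Nenf 1.01 (0.52), Sncg 1.22 (0.77), Rpl14 1.03 (0.69), Rpl13 1.42 (1.23), Tmsb10 1.28 (0.78), Eif4a1 1.04 (1.03), Mif 1.09 (0.56), Gstp-ps 1.23 (0.71), mt-Nd6 1.03 (0.48), Rpl39 1.98 (1.46), Rpl36 1.11 (0.48), Atp5k 1.25 (0.71), Ndufa2 1.15 (0.62) and Hbb-bs 1.41 (0.90). Negative differences were those of Sdk2 -1.40 (-0.89), Pcdhgc5 -1.79 (-1.53), Spen -1.18 (-0.64), Elfn2 -1.31 (-0.94), Kcnn3 -1.31 (-0.91), Dgkg -1.51 (-1.43), Bcar3 -1.16 (-1.16), Pcdhga5 -2.76 (-2.61), Cmip -1.20 (-1.03), Zbtb16 -1.90 (-1.70) and Fosl2 -1.20 (-0.90). What these differences come from was not tested.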

How the results depend on the processing

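The calls of the late fast against the fed state kept their direction in every setting that tested them, but their number did not hold. Genes called higher and lower were 315 and 156 with DESeq2, 398 and 295 with limma-voom, 168 and 30 with a filter at 50 counts (which tested 95 of the 99 and 25 of the 30), 95 and 58 without a filter, 165 and 41 with all 16 libraries in the fit, 602 and 127 against 0 h alone, and 399 and 182 with no fold threshold. With length offsets they were 3 and 0. They were 0 and 0 with the library series as a covariate, within the later series alone, with the lane as a covariate, with the left-out 18 h library, with 2 h replicate 3 and 18 h replicate 2 both left out, against 2 h alone, for 18 h alone and for 22 h alone, with length offsets without 18 h replicate 2 and with median-length offsets. Leaving out each library in turn gave 0 to 480 higher and 0 to 307 lower. The left-out 18 h library moved the median of all genes to -0.11, and 18 h alone to -0.13.

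A replicate block gave 0 and 0 calls, with 4236 genes at an unadjusted p under 0.05. Late and fed libraries that share a replicate number correlated at -0.15 to 0.14 (mean -0.02, n = 10) and others at -0.39 to 0.34 (mean 0.01, n = 20), so that the numbers do not mark pairs. Genes whose change differed between BRN and CBL numbered 248 without the mouse block, 38 with length offsets and 0 to 660 with each mouse left out. For BST they were 161 without the mouse block and 0 to 665 with each mouse left out, and for OB 0 to 157. The median fold change of the longest minus the shortest decile of genes by length was -0.048 with length offsets, -0.019 with those offsets without 18 h replicate 2 and -0.152 with median-length offsets, and -0.807 to -1.154 with each library left out. Of 2365 values for 74 named genes (without those named as cell markers alone), 1699 kept direction and side of the threshold, 619 lost the call, 40 gained it and 7 changed sign, with 0 sign changes among the 31 called. The sign changes under length offsets, the same without 18 h replicate 2 and median-length offsets were Bsn at 0.044, 0.088 and 0.064, and, under the first and second, Neat1 at 0.328 and 0.354 and Ntrk2 at 0.083 and 0.012. The cause was not tested. Length offsets without 18 h replicate 2, median-length offsets and leaving mice out of the region differences were chosen after seeing the data.

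Depth limits scarce genes: 3 counts equal 0.249 to 1.10 normalized CPM, and intervals and floors cover counting error only. The fed group mixes library series and the late group does not, 18 h is held by 2 mice, and only males were sampled.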

Other observations

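Libraries at 8 and 12 h were in neither group. In the order 8 h replicates 1 and 2 and 12 h replicates 1, 2 and 3, the median log2 level of the longest decile of genes by length minus that of the shortest was 2.21, 2.30, 2.34, 1.62 and 2.59. The summed ribosomal protein genes stood at 8306, 8595, 6149, 11740 and 5685 normalized CPM in the same libraries. Of these, 12 h replicate 3 carries the earlier library series and the other 4 the later.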
